A study of Mus musculus with 18 samples.

Results

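The genes that encode the proteasome, the protease that degrades ubiquitin-tagged proteins, were followed in mouse kidney cortex across 2 genotypes and 3 treatments. Members were the rows whose gene name starts with Psma, Psmb, Psmc or Psmd and a digit, without the interferon-inducible Psmb8, Psmb9 and Psmb10. The rule finds 37 of the 24062 genes in the table. They are 7 alpha and 7 beta subunits of the 20S core, 6 ATPases and 11 non-ATPase subunits of the 19S regulatory particle, 3 assembly chaperones of that particle (Psmd5, Psmd9 and Psmd10), 2 core subunits of restricted tissue range (Psma8 of testis and Psmb11 of thymus), and Psmc3ip. Psmc3ip matches by name only, since its product is a cofactor of meiotic recombination and no part of the proteasome.

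All mice were C57Bl/6. In the genotype Klf15fl/fl (here fl/fl) the gene Klf15, which encodes a zinc finger transcription factor, is floxed, and in Klf15PTKO (here PTKO) it is deleted from proximal tubule cells. Each genotype has a vehicle group (DMSO), a group given aristolochic acid I, a nephrotoxin of plant origin, for 2 weeks (AA 2wk), and a group given the toxin for 2 weeks and left for 2 weeks of remodeling (AA 4wk), with 3 libraries in each of the 6 groups. The Cre line is not given in the sources used here, and no group carries Cre with intact Klf15, so effects of the deletion and of Cre cannot be told apart. The same DMSO group, for which no week is given, serves both toxin groups of a genotype, and the labels do not say that the 3 libraries of a group are separate mice, so p-values measure only the spread between these libraries.

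The 20S core is a barrel of stacked rings. The outer rings of alpha subunits gate the entrance, and the inner rings of beta subunits hold the protease sites of Psmb6 (caspase-like), Psmb7 (trypsin-like) and Psmb5 (chymotrypsin-like). The 19S particle caps the barrel, binds ubiquitin chains through subunits such as Psmd4, unfolds the substrate with its ring of Psmc ATPases and feeds it in. In cells exposed to interferon, Psmb9, Psmb10 and Psmb8 take the places of Psmb6, Psmb7 and Psmb5 and form the immunoproteasome. When proteasome activity is short, the membrane-bound factor Nfe2l1 is released and can switch on proteasome subunit genes through antioxidant response elements in their promoters.

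Promoters are shown for 4 genes that the results turn on. Psmb5 and Psmb6 are core protease subunits with a match to the antioxidant response element core, as found also in Psmc6, Psmd9 and Psmd12. Psmd10 and Psmd8, without a match, were called higher in all 4 toxin groups on the deposited scale, which other scalings changed. A link between the match and the toxin differences was not tested. Sequences are from RefSeq, build GRCm38.p6, 250 bases before to 50 bases after the annotated start, 5′ to 3′ on the gene's strand. Capitals mark TGACNNNGC, the antioxidant response element core.
Psmb5: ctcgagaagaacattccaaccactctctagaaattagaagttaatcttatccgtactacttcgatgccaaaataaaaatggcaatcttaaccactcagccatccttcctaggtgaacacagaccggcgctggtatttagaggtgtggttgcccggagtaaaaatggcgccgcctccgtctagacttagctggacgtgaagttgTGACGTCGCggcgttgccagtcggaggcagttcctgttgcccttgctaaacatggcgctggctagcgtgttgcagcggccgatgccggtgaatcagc
Psmb6: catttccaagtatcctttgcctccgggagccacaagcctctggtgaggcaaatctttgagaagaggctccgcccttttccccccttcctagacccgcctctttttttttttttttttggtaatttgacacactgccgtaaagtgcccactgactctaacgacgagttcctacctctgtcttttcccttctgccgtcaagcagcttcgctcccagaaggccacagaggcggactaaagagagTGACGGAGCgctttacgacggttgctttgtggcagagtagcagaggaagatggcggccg
Psmd10: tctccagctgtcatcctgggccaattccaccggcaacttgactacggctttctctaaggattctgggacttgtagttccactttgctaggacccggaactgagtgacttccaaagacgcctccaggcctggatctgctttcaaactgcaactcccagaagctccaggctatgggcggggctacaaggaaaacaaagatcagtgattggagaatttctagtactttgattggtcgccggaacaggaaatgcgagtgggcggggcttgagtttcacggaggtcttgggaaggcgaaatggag
Psmd8: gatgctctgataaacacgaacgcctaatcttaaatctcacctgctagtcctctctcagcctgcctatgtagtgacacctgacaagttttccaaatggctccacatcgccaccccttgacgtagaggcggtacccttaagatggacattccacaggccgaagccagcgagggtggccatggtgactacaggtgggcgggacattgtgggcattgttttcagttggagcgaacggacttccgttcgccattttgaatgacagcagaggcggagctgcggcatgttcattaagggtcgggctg
The windows lie at chr14:54617946-54618245 (minus strand, Psmb5), chr11:70525107-70525406 (plus, Psmb6), chrX:140956662-140956961 (minus, Psmd10) and chr7:29180624-29180923 (minus, Psmd8). With the start counted as 1, the first base of the match is at -47 in Psmb5 and -9 in Psmb6.

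RefSeq promoters were at hand for 30 of the 37 members, and both strands were searched. TGACNNNGC was found in 5 of the 30 (Psmb5, Psmb6, Psmc6, Psmd9 and Psmd12), against 14.0% of the promoters of all 27025 genes. CCAAT, the box bound by factor NF-Y, was in 13 of 30, against 41.1% of all genes, and the Psmd10 window holds 3 copies. GAAANNGAA, the core of the interferon-stimulated response element, was in 5 of 30 (Psmb3, Psmb4, Psmc2, Psmd4 and Psmd9), against 9.8%. These are letter matches in a fixed window and say nothing of a factor's binding.

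Depth was 10681972 to 21155873 reads per library, as recovered from the deposited values. Klf15 was at 53.0 to 65.5 RPKM in fl/fl DMSO and 28.5 to 32.6 in PTKO DMSO, and at 11.6 to 41.3 in the 6 fl/fl toxin libraries and 8.81 to 25.6 in the 6 PTKO toxin libraries. Cell type markers differed with treatment, and in bulk RNA fewer cells of a type and less RNA per cell cannot be told apart. The summed level of 16 proximal tubule markers was 50742 to 63396 RPKM with DMSO and 2115 to 8633 with the toxin. Most of the DMSO sum was the single transcript Kap, at 39230 to 50705 with DMSO and 410 to 5127 with the toxin. Not every marker of the list separated the treatments. Slc5a2 read 134 to 180 with DMSO and 78.3 to 359 with the toxin, and Slc5a12 read 94.4 to 161 and 49.6 to 189. The summed level of the macrophage markers was 76.1 to 142.6 with DMSO and 485.8 to 5102 with the toxin. The AA 2wk library numbered 3 (11919621 reads in fl/fl, 11511116 in PTKO) stood apart in each genotype, with macrophage sums of 485.8 (fl/fl) and 984.9 (PTKO) where the other 4 AA 2wk libraries had 1328 to 3059. In PTKO its podocyte marker sum was also apart, at 361.2 RPKM against 158.8 and 160.8 in libraries 1 and 2, but in fl/fl it was not (143.1 against 139.2 and 141.5). The part of these shifts in the results on proteasome genes was not tested.

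In the vehicle cortex, proteasome genes were expressed at high and unequal levels per transcript length. Over the 6 DMSO libraries of both genotypes, the protease subunit Psmb6 led with 130.0 ± 5.39 RPKM (SD, n = 6), ahead of Psmb7 (112.4 ± 10.7) and the 19S lid subunit Psmd8 (111.8 ± 1.22), which did not differ from each other beyond their spread. Psmb5 had 25.9 ± 5.2 RPKM. The lowest core subunits were Psma5 (8.22 ± 0.642) and Psma3 (7.68 ± 0.571) of the alpha ring, and Psmc3ip had 2.78 ± 0.647. Subunits that sit in the complex in equal number thus differed in RPKM by more than the spread between libraries, and how reads were shared with near-identical processed copies of these genes is not given in the sources used here. Psma8 (0 to 0.549 RPKM) and Psmb11 (0 to 0.0274, at 0 in 13 libraries) did not reach 1 RPKM in any library, so 35 members were tested.

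Over all 18 libraries, in RPKM as deposited, 33 of the 35 tested members had a highest library under 2 times the lowest. The share of all tested genes under that ratio is not given here, and other scalings would change the ratios. The ratio ran from 1.255 in Psmd1, the scaffold subunit of the 19S base, to 2.80 in Psmc3ip, and it was 2.15 in Psmd10. The summed RPKM of the 37 members was 2036 to 2291 in fl/fl DMSO, 2152 to 2242 in PTKO DMSO, 2413 to 2657 in fl/fl AA 2wk, 2203 to 2709 in PTKO AA 2wk, 2226 to 2493 in fl/fl AA 4wk and 2275 to 2465 in PTKO AA 4wk.

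The first comparisons ask what the toxin did to these genes in each genotype, tested with limma on log2(RPKM + 1) over 13624 genes, with Benjamini-Hochberg adjusted p under 0.05 as a call. In fl/fl mice at AA 2wk, 15 of 35 members were called higher and 0 lower, where 50.4% of all tested genes were called higher and 12.2% lower. The median log2 difference was 0.21 over the members and 0.33 over all tested genes. In PTKO mice at AA 2wk, 6 members were called higher and 1 lower (background 45.9% and 14.3%), with medians of 0.16 and 0.29. In fl/fl mice at AA 4wk, 7 were called higher and 1 lower (background 51.9% and 14.3%), with medians of 0.12 and 0.35. In PTKO mice at AA 4wk, 7 were called higher and 3 lower (background 55% and 17.3%), with medians of 0.02 and 0.40. The member median lay below the all-gene median in each toxin group, by 0.12, 0.13, 0.23 and 0.38 in this order, but above it under quantile normalization in all 4 and without a filter in both AA 2wk groups.

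These directions rest on how libraries are scaled. In the deposited RPKM the median of all tested genes lay 0.29 to 0.40 above vehicle on the log2 scale. Median-of-ratios scaling, which sets that median to 0, turned the member calls to 1 higher and 7 lower in fl/fl AA 2wk, 0 and 10 in PTKO AA 2wk, 0 and 23 in fl/fl AA 4wk, and 0 and 27 in PTKO AA 4wk. Under that scaling 27.9%, 26.7%, 30% and 32.9% of all tested genes were called higher and 27.7%, 27.3%, 30.8% and 33.9% lower, in this order. It also moved the share of all calls that were higher from 80.5%, 76.3%, 78.4% and 76.1% to 50.2%, 49.5%, 49.3% and 49.3%. Quantile normalization gave 13 higher and 2 lower, 10 and 3, 9 and 3, and 10 and 6, with 44.8%, 46.7%, 43.8% and 44.5% of all calls higher. There 24.1%, 24.3%, 26.3% and 29.2% of all tested genes were called higher and 29.7%, 27.7%, 33.8% and 36.5% lower. Under all 4 scalings (RPKM as deposited, median of ratios, quantile, and voom on recovered reads) the difference kept its sign above 0 for 4, 4, 2 and 2 members and below 0 for 3, 5, 7 and 13 members, in the same order of groups.

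**Figure D1:**
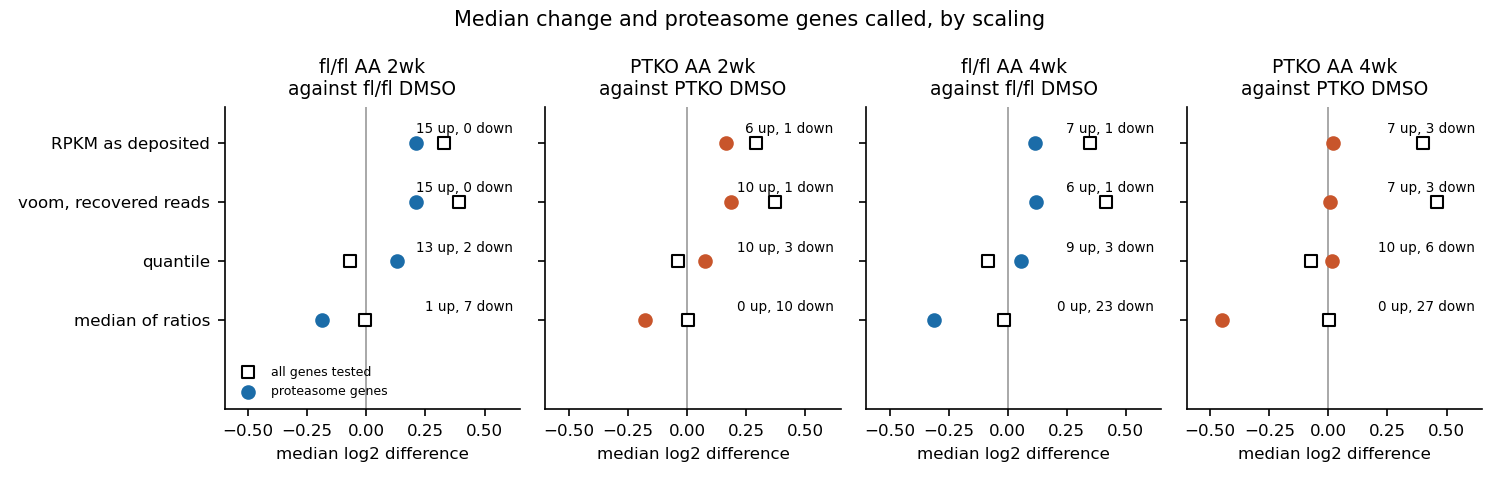
Median log2 difference between toxin and vehicle over the 35 tested proteasome genes (filled circles) and over all tested genes (open squares) under 4 scalings, with the number of proteasome genes called higher (up) and lower (down). In RPKM as deposited the circles lie at 0.21, 0.16, 0.12 and 0.02, left of the squares, they lie right of the squares under quantile normalization, and under median-of-ratios scaling they lie at -0.19, -0.18, -0.31 and -0.45.

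Single libraries also set the counts at AA 2wk. Without fl/fl DMSO library 1 the fl/fl count was 7 in place of 15, and without fl/fl AA 2wk library 2 it was 6. The PTKO count was 4 without PTKO AA 2wk library 1 and 17 without PTKO AA 2wk library 3. Without both AA 2wk libraries numbered 3, 19 members were called higher and 0 lower in fl/fl, and 16 and 1 in PTKO. At AA 4wk no single library moved a count by more than 1.5 times. The shares of all tested genes called in these refits are not given here. Whether the members or the whole table moved cannot be told from these counts.

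**Figure D2:**
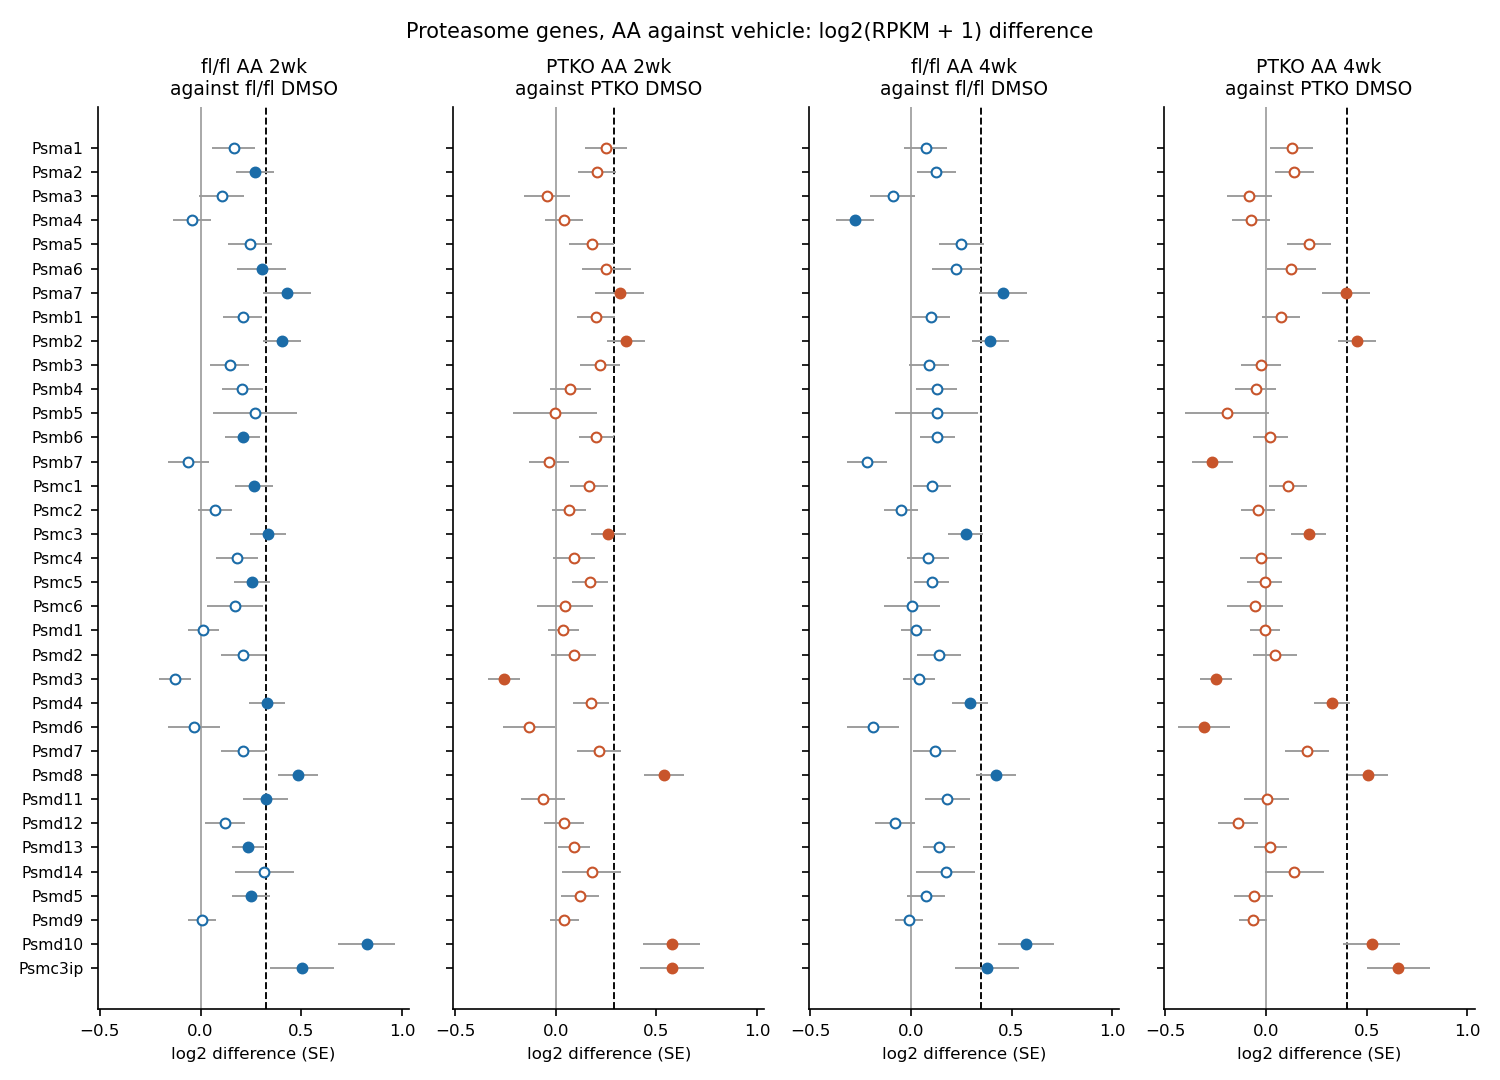
Log2 difference, on log2(RPKM + 1), between toxin and vehicle for each of the 35 tested members in the 4 toxin groups, with bars of 1 SE. Filled points passed the test, and the dashed line is the median of all tested genes, 0.29 to 0.40. In all groups but PTKO AA 4wk most points lie between 0 and that line on this scale, and in PTKO AA 4wk they spread to both sides of 0. Most of the points between 0 and the line fall below 0 under median-of-ratios scaling, and Psmd10 and Psmd8 lie to the right of the line in all 4 groups.

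Among the 19S chaperones, Psmd10 was called in all 4 toxin groups. Psmd10 (gankyrin, chromosome X, 140948425 to 140956711, minus strand) binds the ATPase Psmc4 while the 19S base is built and is also known as an oncoprotein that restrains the retinoblastoma protein and p53. Its libraries read 13.9, 14.2 and 15.3 RPKM in fl/fl DMSO, 23.8, 29.1 and 26.4 in fl/fl AA 2wk, and 23.0, 20.1 and 22.9 in fl/fl AA 4wk. In PTKO they read 15.6, 14.6 and 17.1 with DMSO, 25.6, 29.8 and 17.9 in AA 2wk, and 22.3, 21.5 and 25.6 at AA 4wk. Every toxin library lay above every vehicle library of its genotype, and the lowest was PTKO AA 2wk library 3.

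The difference in Psmd10 was 0.82 ± 0.14 on the log2 scale (SE, adjusted p = 0.000196) in fl/fl AA 2wk, a fold of 1.77, and 0.58, 0.57 and 0.52 in PTKO AA 2wk, fl/fl AA 4wk and PTKO AA 4wk (adjusted p = 0.00293, 0.00243 and 0.00374). It stayed above 0 under each scaling, but under median-of-ratios scaling only the fl/fl AA 2wk value, 0.44, was still called, and under quantile normalization neither AA 4wk value was (0.27 and 0.20). Without the AA 2wk libraries numbered 3 the AA 2wk differences were 0.82 in fl/fl and 0.78 in PTKO. Psmd9, another chaperone of the 19S base, was at 11.81, 11.02 and 11.85 RPKM in fl/fl DMSO and at 10.9, 10.9 and 11.3 in PTKO DMSO, and the 12 toxin libraries lay between 9.97 and 12.7. The groups overlapped, and its differences of 0.01, 0.04, -0.01 and -0.07 were not called on this scale. Under median-of-ratios scaling it was called lower in fl/fl AA 2wk (-0.37, adjusted p = 0.00782) and PTKO AA 2wk (-0.28, adjusted p = 0.0357). Quantile normalization also called it lower in these groups (-0.38 and -0.28, adjusted p = 0.00725 and 0.0354). At AA 4wk Psmd9 was at -0.41 in fl/fl and -0.50 in PTKO under median-of-ratios scaling. Quantile normalization gave -0.42 and -0.53 there. Psmd5, outside the rule for named genes and singled out after its values were seen, was called higher in fl/fl AA 2wk alone (0.25), and that call was lost under median-of-ratios and quantile scaling and without fl/fl DMSO library 1 or 2 or fl/fl AA 2wk library 2 or 3.

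Of the 11 non-ATPase 19S subunits, 4, 1, 2 and 2 were called higher and 0, 1, 0 and 2 lower in fl/fl AA 2wk, PTKO AA 2wk, fl/fl AA 4wk and PTKO AA 4wk. Of all tested genes, 50.4%, 45.9%, 51.9% and 55% were called higher in this order. The shares called lower were 12.2%, 14.3%, 14.3% and 17.3%. These shares are also the background for the alpha, beta and ATPase counts below. Psmd8, a lid subunit (chromosome 7, 29174187 to 29180673, minus strand), had the tightest vehicle values, 111.2, 113.1 and 113.1 RPKM in fl/fl and 109.9, 111.6 and 112.1 in PTKO. At AA 2wk it read 152.4, 174.7 and 147.2 in fl/fl and 169.1, 180.1 and 139.1 in PTKO. At AA 4wk it read 155.3, 138.1 and 161.0 in fl/fl and 154.2, 151.2 and 170.6 in PTKO. No toxin library overlapped the vehicle libraries. The differences of 0.48, 0.54, 0.42 and 0.51 (SE 0.10 each, adjusted p = 0.000825, 0.000418, 0.00183 and 0.000371) were all called on this scale, and under median-of-ratios scaling they were 0.08, 0.19, -0.01 and 0.04, none called. Psmd4, a ubiquitin receptor, was called higher in fl/fl AA 2wk (0.33), fl/fl AA 4wk (0.29) and PTKO AA 4wk (0.33), all of which lay below 0 under median-of-ratios scaling. It read 61.5, 59.5 and 66.1 RPKM in fl/fl DMSO, 77.5, 84.2 and 74.0 in AA 2wk, and 77.7, 74.7 and 77.1 in AA 4wk. In PTKO it read 66.0, 60.9 and 65.8 with DMSO, 72.6, 80.0 and 65.7 in AA 2wk, and 74.4, 78.6 and 90.4 in AA 4wk. Only PTKO AA 2wk overlapped its vehicle group, again through library 3.

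Psmd3 and Psmd6 lay on the other side. Psmd3, a scaffold of the lid, read 97.5, 83.8 and 93.3 RPKM in fl/fl DMSO and 107.4, 101.4 and 98.9 in PTKO DMSO. In PTKO it read 80.7, 85.2 and 91.6 in AA 2wk, then 84.5, 83.4 and 90.7 in AA 4wk, all below the vehicle libraries. In fl/fl it read 81.9, 79.3 and 89.5 in AA 2wk, then 93.4, 90.6 and 98.0 in AA 4wk, and both overlapped vehicle. The PTKO differences, -0.26 ± 0.08 in AA 2wk, then -0.25 ± 0.08 in AA 4wk (SE, adjusted p = 0.0127 and 0.0115), were called, were negative under each scaling, and lost the call without PTKO DMSO library 1 (adjusted p = 0.0549 and 0.0507) and, at AA 2wk, without PTKO AA 2wk library 1 (0.0623). The fl/fl differences were -0.13 and 0.04 and not called on this scale. Under median-of-ratios scaling they were -0.53 and -0.39, beside -0.60 and -0.72 in PTKO. Without the AA 2wk libraries numbered 3 the PTKO AA 2wk difference was -0.30. Psmd3 at AA 4wk in PTKO was also not called under quantile normalization (-0.10). Psmd6, another lid subunit, was called lower on this scale only in PTKO AA 4wk (-0.31 ± 0.13, adjusted p = 0.0411). Its libraries there read 45.4, 40.2 and 39.5 RPKM against 52.8, 48.8 and 54.0 with DMSO. That call was lost when either of PTKO DMSO libraries 1 and 3 or PTKO AA 4wk libraries 2 and 3 was left out (adjusted p = 0.0927 to 0.114), and also with no filter (0.0541) and with the replicate number as a block (0.0557). Its difference was negative in every toxin group and under each scaling. Under median-of-ratios scaling it was -0.43, -0.47, -0.62 and -0.78 in fl/fl AA 2wk, PTKO AA 2wk, fl/fl AA 4wk and PTKO AA 4wk.

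Psmd11 and Psmd13, lid subunits, were called higher in fl/fl AA 2wk (0.32 and 0.23), but lay below 0 there under median-of-ratios scaling (-0.07 and -0.16). Neither was called in another toxin group. Psmd11 read 32.9, 34.0 and 35.7 RPKM in fl/fl DMSO and 42.5, 46.5 and 40.4 in fl/fl AA 2wk, with no overlap, and in PTKO 43.4, 37.6 and 37.1 with DMSO and 42.7, 41.4 and 29.8 in AA 2wk, with overlap. Psmd13 read 50.3, 43.7 and 50.3 in fl/fl DMSO and 58.9, 58.5 and 52.7 in fl/fl AA 2wk, with no overlap. The Psmd11 call was lost without fl/fl DMSO library 1 (adjusted p = 0.0626) or fl/fl AA 2wk library 2 (0.0785), and the Psmd13 call without fl/fl DMSO library 2 (0.0939) or without fl/fl AA 2wk library 1 (0.0734) or 2 (0.0665).

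**Figure D3:**
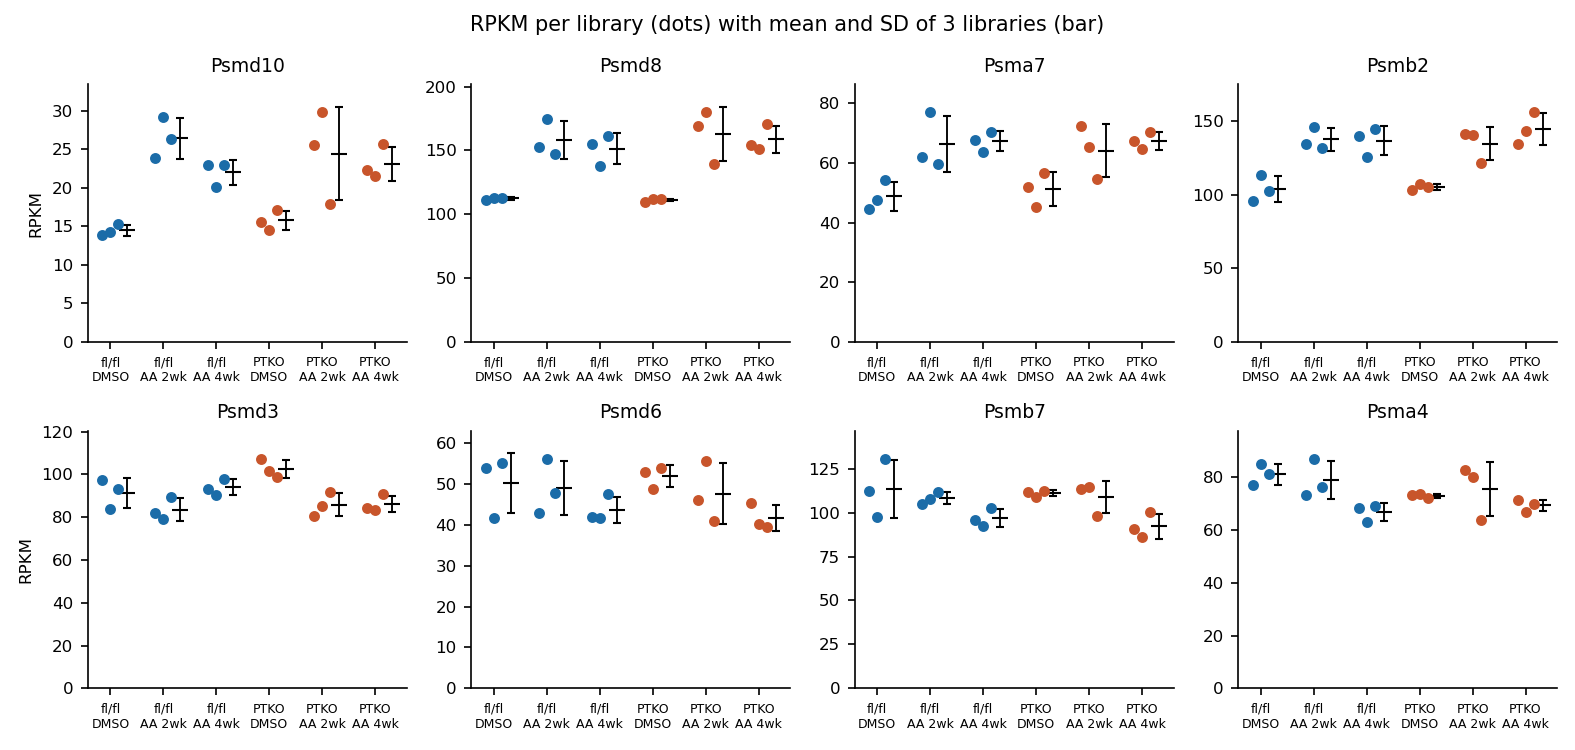
RPKM of 8 members in each library (dots, blue for fl/fl and orange for PTKO) with the mean and SD of 3 libraries (bar). In Psmd10 and Psmd8 the toxin libraries lie above the vehicle libraries of their genotype, while Psmd3, Psmd6, Psmb7 and Psma4 show small or opposite shifts. The order of groups for Psma7, Psmb2 and Psmd8 depends on the scaling: under median of ratios Psma7 turns below 0 in both PTKO toxin groups, Psmb2 in both AA 4wk groups and Psmd8 in fl/fl AA 4wk, Psmb7 turns above 0 under quantile normalization at AA 2wk, Psma4 below 0 under median of ratios in PTKO AA 2wk, and Psmd3 below 0 in fl/fl AA 4wk.

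Of the 7 alpha subunits, 3, 1, 1 and 1 were called higher and 0, 0, 1 and 0 lower in the same order of groups. Psma7, an alpha ring subunit (chromosome 2, 180036367 to 180042464, minus strand), read 44.7, 47.6 and 54.2 RPKM in fl/fl DMSO, 62.1, 77.1 and 59.8 in AA 2wk, and 67.6, 63.8 and 70.4 in AA 4wk. In PTKO it read 52.0, 45.1 and 56.6 with DMSO, 72.4, 65.3 and 54.8 in AA 2wk, and 67.3, 64.6 and 70.6 at AA 4wk. Only PTKO AA 2wk overlapped its vehicle group, through library 3. The differences of 0.43, 0.32, 0.46 and 0.40 were all called on this scale (adjusted p = 0.00607, 0.0326, 0.00359 and 0.00769) and were 0.03, -0.02, 0.03 and -0.07 under median-of-ratios scaling. The PTKO AA 2wk call was lost without PTKO DMSO library 1 or 2 or PTKO AA 2wk library 1 or 2 (adjusted p = 0.0594, 0.145, 0.152 and 0.0827).

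Psma4, of the same ring, went the other way in fl/fl AA 4wk. It read 77.2, 85.1 and 81.1 RPKM in fl/fl DMSO and 68.3, 62.9 and 69.0 at AA 4wk, with no overlap. The difference was -0.28 ± 0.09 (SE, adjusted p = 0.0169), negative under each scaling, and lost its call without fl/fl DMSO library 2 (adjusted p = 0.0555) or fl/fl AA 4wk library 2 (0.0688). Psma4 was at -0.04 in fl/fl AA 2wk, 0.04 in PTKO AA 2wk and -0.07 in PTKO AA 4wk, none called on this scale. Under median-of-ratios scaling these were -0.44, -0.30 and -0.54, beside -0.71 in fl/fl AA 4wk. The PTKO AA 2wk value was called lower there (adjusted p = 0.0106). Calls under that scaling in fl/fl AA 2wk and PTKO AA 4wk are not given here.

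Of the 7 beta subunits, 2, 1, 1 and 1 were called higher and 0, 0, 0 and 1 lower. Psmb2, a beta subunit without a protease site, was called in each group and was singled out after its values were seen. It went from 103.9 ± 9.11 RPKM (SD, n = 3) in fl/fl DMSO to 137.7 ± 7.75 in AA 2wk, then 136.9 ± 10.1 in AA 4wk, and in PTKO from 105.4 ± 2.27 to 134.7 ± 11.3 and 144.7 ± 10.99. The differences of 0.40, 0.35, 0.39 and 0.45 were called in all 4 toxin groups (adjusted p = 0.00167, 0.00491, 0.00172 and 0.000501), and were 0.00, 0.00, -0.04 and -0.02 under median-of-ratios scaling.

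Of the 3 protease subunits, Psmb6 was called higher in 1 toxin group, Psmb7 lower in 1 and Psmb5 in none, under median-of-ratios scaling all 3 lay below 0 in all 4 groups, and differences between the 3 were not tested. Psmb7 read 112.0, 109.0 and 112.4 RPKM in PTKO DMSO and 90.6, 86.2 and 100.2 in PTKO AA 4wk, with no overlap. Its difference there was -0.27 ± 0.10 (SE, adjusted p = 0.0262), called and negative under each scaling, but not called under quantile normalization (-0.08) or without any one of PTKO DMSO library 1 or 3 or PTKO AA 4wk library 1 or 2 (adjusted p = 0.0619 to 0.101). In fl/fl AA 4wk it was -0.22 and not called. Psmb6 read 131.9, 136.3 and 123.9 RPKM in fl/fl DMSO and 140.2, 149.7 and 164.2 in fl/fl AA 2wk, with no overlap. It was called higher there (0.21 ± 0.09, adjusted p = 0.0484), a call lost without any of 13 of the 18 libraries and turned to -0.19 by median-of-ratios scaling. Psmb5 read 31.5, 20.2 and 23.1 RPKM in fl/fl DMSO and 32.8, 21.9 and 25.8 in PTKO DMSO. The 12 toxin libraries lay between 20.8 and 35.2, each group overlapped its vehicle group, and its differences of 0.27, -0.00, 0.13 and -0.20 (SE 0.21 each) were not called.

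Of the 6 ATPases, which form the unfolding ring, 3, 1, 1 and 1 were called higher on this scale and 0 lower, and under median-of-ratios scaling none kept a positive call. Their medians were 0.22, 0.13, 0.09 and -0.02. Psmc3ip, no ATPase in spite of its name, had 24 to 94 recovered reads per library. It read 2.28, 3.07 and 3.83 RPKM in fl/fl DMSO and 2.91, 2.01 and 2.59 in PTKO DMSO, and 3.56 to 5.62 in the 12 toxin libraries, where fl/fl AA 4wk alone overlapped its vehicle group. It was called higher in all 4 groups (0.50, 0.58, 0.38 and 0.66), though below 0 under quantile normalization in fl/fl AA 2wk, fl/fl AA 4wk and PTKO AA 4wk. None of the 4 calls held under median-of-ratios scaling (adjusted p = 0.341, 0.103, 0.845 and 0.114) or under quantile normalization, where PTKO AA 2wk was at 0.08, and voom did not call it in fl/fl AA 4wk (adjusted p = 0.0527). Its fl/fl AA 2wk call was lost without fl/fl DMSO library 1 (adjusted p = 0.0751) or fl/fl AA 2wk library 2 (0.0659), and its fl/fl AA 4wk call without any of 11 libraries.

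Because scaling sets the sign of most members, each library was also set to the median of its tested members, an alternative chosen after seeing the data that asks which genes moved within the set. Psmd10 was called higher than the set in all 4 toxin groups, by 0.64, 0.47, 0.49 and 0.44 on the log2 scale, and Psmd8 also in all 4, by 0.30, 0.43, 0.35 and 0.42. Psma7 was called in fl/fl AA 2wk, fl/fl AA 4wk and PTKO AA 4wk, and Psmb2 in both AA 4wk groups. Psmc3ip, no part of the proteasome, was called higher in both PTKO toxin groups and in neither fl/fl toxin group. Psmd4 was called higher in PTKO AA 4wk, where not every call of this fit is named here. Psmd3 was called lower in both PTKO groups (-0.36 and -0.34), Psmb7 and Psmd6 in both AA 4wk groups, and Psma4 in fl/fl AA 4wk. Since each value is read against the median of the same genes, these say which members differ from their set and nothing of the set's own change.

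The second question is whether the genes moved in the remodeling period. Between AA 4wk and AA 2wk, 0 of 35 members were called in either genotype, where 0.125% of all tested genes were called in fl/fl and 4.16% in PTKO. With limma, 1 member in fl/fl (Psma4) and 2 in PTKO (Psmb3 and Psmb7) had an unadjusted p under 0.05, and voom called 0 in both. In PTKO, the fit with the replicate number as a block called 11.5% of all genes and still 0 members. The numbers were taken to pair these groups from correlations of only 0.10 to 0.24, and the labels state no pairing. The block was also shared by all 6 groups, so it did not pair these groups alone. The member medians were -0.10 in fl/fl and -0.07 in PTKO, against 0.01 and 0.10 over all genes. With sample quality weights 1 member was called higher and 5 lower in fl/fl, and 0 and 5 in PTKO. Those weights ran from 0.00425 for fl/fl DMSO library 1 to 16.0045 for fl/fl AA 2wk library 1, so that fit leans on single libraries. The share of all tested genes it called is not given here, so its counts are not shown to be particular to the members. Psmb3, Psmb7 (PTKO) and Psma4 (fl/fl) had the lowest p at -0.24, -0.23 and -0.24, with adjusted p of 0.133, 0.152 and 0.337.

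The third question is whether loss of Klf15 changed these genes. Among the 35 members, 0 were called between PTKO and fl/fl in any of the treatments (DMSO, AA 2wk, AA 4wk, in this order), where 0.0367%, 0.00734% and 0.00734% of all tested genes were called. With limma, 0 members had an unadjusted p under 0.05 in any of the 3, and voom called 0. At AA 2wk, the fit with the replicate block called 0.022% of all genes and 0 members. There the numbers were taken to pair the genotypes from correlations of 0.43 to 0.66, not from the labels. That fit shared the effect of each replicate number across all 6 groups, so it did not pair these groups alone. Differences ran from -0.20 (Psmc3ip) to 0.19 (Psmd11) with DMSO, from -0.19 (Psmd11) to 0.09 (Psmb3) at AA 2wk and from -0.21 (Psmb5) to 0.08 (Psmb2) at AA 4wk, and the 95% intervals of single members reached from -0.66 to 0.55, both for Psmb5. With sample quality weights 1 member, Psmb3, was called at AA 2wk (0.27, adjusted p = 0.0438), a fit in which fl/fl AA 2wk library 1 has most of its group's weight. The share of all tested genes called in that fit is not given here.

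The test of whether the toxin effect differed by genotype called 0 of 35 members at AA 2wk (background 0.0147%) and 0 at AA 4wk (background 0.00734%), and voom also called 0. One member had an unadjusted p under 0.05 in each, Psmd11 at AA 2wk (-0.39, 95% interval -0.72 to -0.05, adjusted p = 0.869) and Psmd3 at AA 4wk (-0.29, interval -0.53 to -0.05, adjusted p = 0.934). So the lower Psmd3 in PTKO with the toxin, and the call of Psmd11 in fl/fl alone, were not shown to differ between genotypes.

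The inducible counterparts of the protease subunits gave the contrast. Psmb8 read 5.98, 7.56 and 4.85 RPKM in fl/fl DMSO, 69.2, 98.2 and 20.8 in AA 2wk, and 69.8, 63.7 and 71.3 in AA 4wk. In PTKO it read 7.35, 5.19 and 8.11 with DMSO, 103.5, 58.0 and 42.7 in AA 2wk, and 96.7, 93.1 and 85.4 at AA 4wk. No toxin library overlapped vehicle, and in both genotypes AA 2wk library 3 was the lowest of its group, as in the macrophage sums. Log2 differences were 2.92, 3.05, 3.30 and 3.57 for Psmb8, 2.69, 2.68, 2.96 and 3.41 for Psmb9, and 2.33, 2.40, 2.54 and 2.70 for Psmb10, all called and all positive under each scaling. Psmb9 read 3.92 to 6.34 RPKM in the 6 vehicle libraries and 14.6 to 62.4 in the 12 toxin libraries, and Psmb10 read 7.16 to 11.1 and 23.8 to 77.3. Without the AA 2wk libraries numbered 3 the AA 2wk differences of Psmb8 were 3.57 in fl/fl and 3.34 in PTKO. Psme1 and Psme2, which encode the interferon-inducible PA28 activator, were called higher in all 4 groups at 1.31 to 1.67.

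Within a library the share of the inducible form is free of scaling. Psmb8 made up 20.2 ± 6.11% of Psmb8 and Psmb5 RPKM in fl/fl DMSO (SD, n = 3), 62.3 ± 19.99% in AA 2wk, then 71.7 ± 3.66% in AA 4wk, and in PTKO 20.5 ± 3.06%, 69.9 ± 9.65% and 79.9 ± 2.20%. Psmb9 made up 3.50% of Psmb9 and Psmb6 in fl/fl DMSO, 21.0% in AA 2wk, then 23.1% in AA 4wk, and in PTKO 3.61%, 20.4% and 31.8%. Psmb10 made up 7.02% of Psmb10 and Psmb7 in fl/fl DMSO, 30.7% in AA 2wk, then 35.4% in AA 4wk, and in PTKO 7.92%, 33.4% and 42.1%. Toxin and vehicle did not overlap in any of these, and an exact permutation test of each, two-sided, gave 0.1, the smallest p that 3 against 3 allows. Several marker lists differed between the same groups: 8 of 8 T cell, 12 of 12 macrophage and 8 of 8 injured tubule markers and 10 of 10 cell cycle genes were called higher in each toxin group, and 6, 1, 7 and 7 of 7 fibroblast markers. Of all tested genes, 50.4%, 45.9%, 51.9% and 55% were called higher. Other lists overlapped, such as the endothelial sum, at 126.6 to 188.0 RPKM with DMSO and 135.9 to 210.8 with the toxin. The summed T cell level was 2.13 to 3.49 RPKM with DMSO and 11.8 to 121.6 with the toxin, lowest in fl/fl AA 2wk library 3. Within PTKO AA 2wk, library 2 had the highest macrophage sum (2718 RPKM) and the lowest Psmb8 share, 63.7% against 64.95% in library 3. The Psmb9 and Psmb10 shares were lowest in library 3 (14.9% and 29.8%), which had the lowest macrophage sum of that group (984.9 RPKM). The part of these lists in the shares was not tested.

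**Figure D4:**
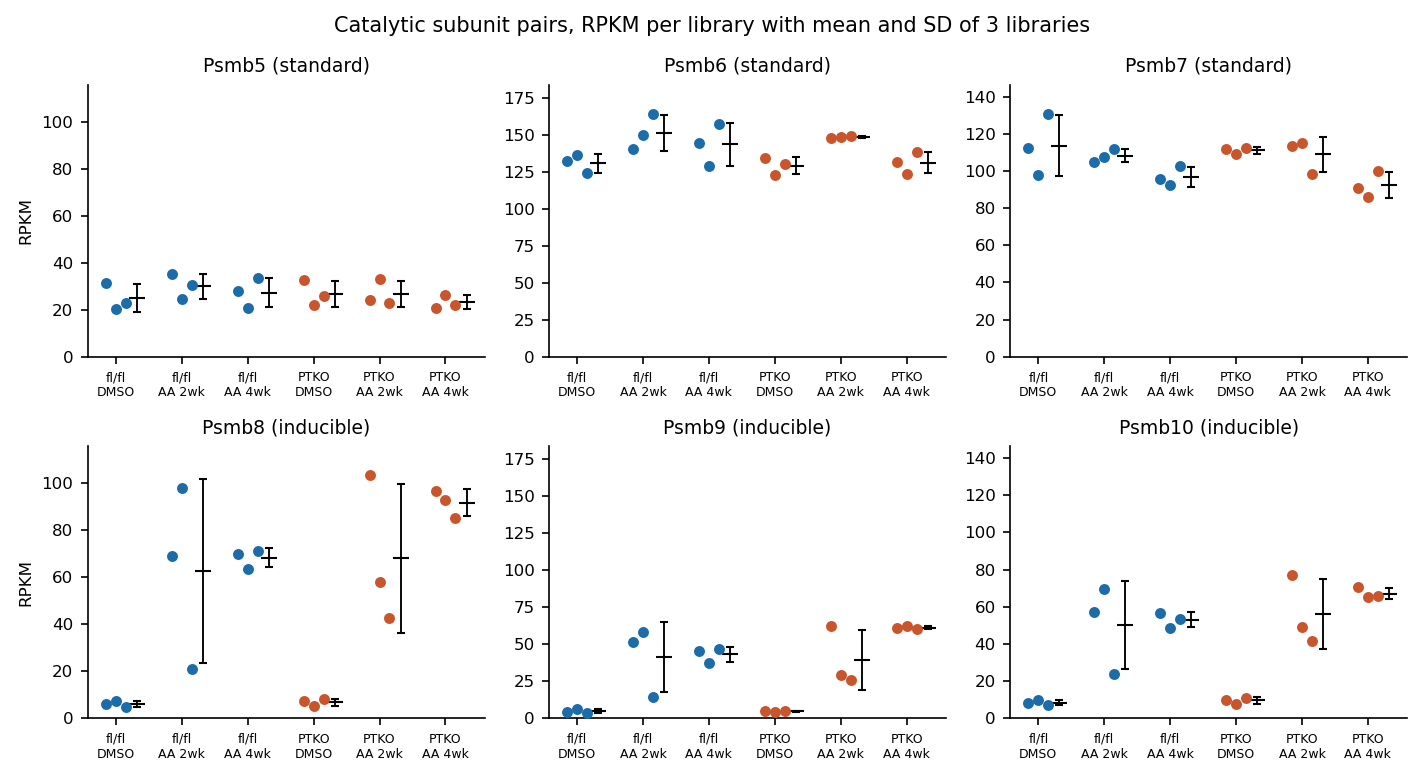
RPKM of the 3 standard protease subunits (top) and their inducible counterparts (bottom) in each library, each pair on a common axis, with the mean and SD of 3 libraries. Psmb8, Psmb9 and Psmb10 are higher in every toxin library than in the vehicle libraries, with Psmb8 between 20.8 and 103.5 RPKM against 4.85 to 8.11, while Psmb5 overlaps vehicle in each group.

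Genes around the proteasome were called in both directions. Of all tested genes, 45.9% to 55% were called higher and 12.2% to 17.3% lower across the toxin groups. Shares under median-of-ratios scaling are given above. The counts in the small lists here and below are not shown to be particular to them. Nfe2l1, the factor that can induce proteasome genes, read 48.4, 54.2 and 44.0 RPKM in fl/fl DMSO, 81.3, 73.8 and 69.8 in AA 2wk, and 84.8, 91.4 and 88.3 in AA 4wk. In PTKO it read 55.6, 52.0 and 55.2 with DMSO, 72.9, 75.3 and 72.0 in AA 2wk, and 77.9, 89.8 and 93.2 in AA 4wk. No toxin library overlapped vehicle. It was called higher in all 4 toxin groups (0.61, 0.43, 0.84 and 0.67), stayed above 0 under each scaling, and was not called in PTKO AA 2wk under median-of-ratios scaling (0.09). Of the 5 genes of its list, 2 were called higher (Nfe2l1 and its relative Nfe2l2, the oxidant sensor factor) and 1 lower in each group. The lower one, Ngly1, encodes the deglycosylase that processes Nfe2l1 and was at -0.23, -0.36, -0.47 and -0.62. Vcp, which extracts Nfe2l1 from the membrane, and the protease gene Ddi2 were within -0.18 to 0.01 and not called. Under median-of-ratios scaling 3 of the 5 were lower in each group.

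Of the 5 core assembly chaperones, 3, 2, 1 and 1 were called higher and 0, 0, 1 and 1 lower in fl/fl AA 2wk, PTKO AA 2wk, fl/fl AA 4wk and PTKO AA 4wk. The background in this order was 50.4%, 45.9%, 51.9% and 55% higher and 12.2%, 14.3%, 14.3% and 17.3% lower, also for the lists that follow. Psmg4 was called in all 4 (0.59, 0.80, 0.64 and 0.52), while Psmg1, which works on the alpha ring, was called lower in both AA 4wk groups (-0.37 and -0.54). Under median-of-ratios scaling 0, 1, 0 and 0 of this list were called higher and 2, 1, 3 and 2 lower. Of the 3 other activators and inhibitors, Psme4, the PA200 activator, was called lower in all but fl/fl AA 2wk (-0.26 in PTKO AA 2wk, -0.46 in fl/fl AA 4wk and -0.61 in PTKO AA 4wk) and was called lower from AA 2wk to AA 4wk in PTKO (-0.35, adjusted p = 0.0457). Of 4 tested 19S components and deubiquitinases, 3, 3, 2 and 2 were called higher on the RPKM scale, led by Usp14, which trims ubiquitin chains at the 19S particle (0.56, 0.49, 0.41 and 0.55), and under median-of-ratios scaling none was.

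Of 5 tested ubiquitin genes and E1 enzymes, 2, 2, 1 and 2 were called higher and 0 lower, all of them the E1 enzymes Uba1 and Uba6, and under median-of-ratios scaling 0 were higher. Of 5 tested shuttle factors, which carry ubiquitylated proteins to the proteasome, 1, 2, 3 and 2 were called higher and 0, 0, 0 and 1 lower (Ubqln1 in PTKO AA 4wk), and 0 were higher under median-of-ratios scaling. Between genotypes, 0 genes of these lists were called in any treatment.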

How the data were processed

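RNA of kidney cortex was sequenced (TruSeq Stranded Total RNA, per the labels' protocols) in 18 libraries. The authors deposited RPKM for 24062 genes, per the file headers. Per the submitters' processing notes, bcl2fastq 2.19, kallisto and the build mm10 were used, and how reads became RPKM is not given in the sources used here. Whole reads were recovered for 99.994% of values (tolerance 0.02 reads; 17578 of 17579 genes). The 13624 genes that reached 1 RPKM in 3 or more libraries were fitted on log2(RPKM + 1), pseudocount 1, with limma 3.58.1 (R 4.3.3, statmod 1.5.0) over 6 group means, with trend and robust moderation. The script was tested on simulated data. Tests were two-sided and adjusted by Benjamini-Hochberg over all tested genes. Folds are on this scale, which understates changes of low genes. Alternatives were scaling, filter, pseudocount, voom on recovered reads, sample quality weights, the replicate block and left-out libraries. Deviations of same-numbered libraries from their group means correlated above 0.1 in all 3 pairs for 2 of 15 pairs of groups, fl/fl AA 2wk with PTKO AA 2wk (0.43 to 0.66) and PTKO AA 2wk with PTKO AA 4wk (0.10 to 0.24), so the numbers were taken to pair these groups, a pairing read from the data and not from the labels. Over all pairs of groups 23 of 45 such correlations were above 0.1, so the pairing of the 2 PTKO groups is not established. The block fit shared the effect of each replicate number across all 6 groups. Among them were PTKO DMSO and PTKO AA 2wk, whose same-numbered libraries correlated at -0.16 to -0.04. The members, gene lists and tests were chosen with earlier results of these data known. Values per library were due for the 3 protease subunits and their inducible counterparts, for the 3 members with the largest and the 3 with the smallest difference in each toxin group, for members called between genotypes, in an interaction or from AA 2wk to AA 4wk (where none was called between genotypes or in an interaction, the 2 of smallest p), and for Nfe2l1. From each other pathway list the largest rise and fall could be named. Promoters came from RefSeq (GRCm38.p6), which may not match the authors' annotation. One promoter motif is not reported here.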

Additional observations from a re-analysis of the deposited data

How the results depend on the processing

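The calls are given as fl/fl AA 2wk, PTKO AA 2wk, fl/fl AA 4wk and PTKO AA 4wk against DMSO, where limma called 15, 7, 8 and 10 members. Median-of-ratios scaling gave 8, 10, 23 and 27, quantile normalization 15, 13, 12 and 16, voom on recovered reads 15, 11, 7 and 10, sample quality weights 10, 20, 8 and 13, fits on only the groups compared 8, 4, 8 and 11, leaving out both AA 2wk libraries numbered 3 19, 17, 11 and 11, and scaling to the member median 3, 4, 7 and 10. Leaving out 1 library gave 6 to 18, 4 to 17, 6 to 11 and 7 to 11. Sample quality weights called 6 members between AA 4wk and AA 2wk in fl/fl and 5 in PTKO, and 1 between genotypes at AA 2wk. In the comparisons against DMSO the replicate numbers were not taken to pair the samples, and the fit with the replicate block called 15, 9, 7 and 9 members. Among named genes it ended the calls of Psmd6 in PTKO AA 4wk (adjusted p = 0.0557) and Psmc3ip in fl/fl AA 4wk (0.0568), and where the numbers were taken to pair the groups it changed no member's call. Shares of all tested genes are given above for the main fit, for median-of-ratios and quantile scaling against DMSO, and for the block where pairing was taken. For the other fits they are not given, so those counts are not shown to be particular to the members.

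The member median minus the all-gene median was -0.12, -0.13, -0.23 and -0.38. It was 0.20, 0.12, 0.14 and 0.0866 under quantile normalization, 0.0724, 0.0523, -0.0495 and -0.16 without a filter, -0.0669 (PTKO AA 2wk) and -0.28 (PTKO AA 4wk) with 1 RPKM in all libraries, -0.19 and -0.46 in these groups with voom, -0.21 in fl/fl AA 2wk with quality weights and -0.45 in PTKO AA 4wk with median of ratios. In PTKO from AA 2wk to AA 4wk it was -0.00902 under quantile normalization. Leaving out 1 library gave -0.22 to -0.0255, -0.19 to -0.12, -0.36 to -0.17 and -0.42 to -0.35 against DMSO, and -0.17 to -0.06 (fl/fl) and -0.22 to -0.15 (PTKO) between AA 4wk and AA 2wk. The cause of these shifts was not tested.

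Single genes whose sign turned were, under median-of-ratios scaling, Psmb6 -0.194, Psmd11 -0.0718, Psmd13 -0.163, Psmd4 -0.0709 and Psmd9 -0.368 in fl/fl AA 2wk, Psma4 -0.303, Psma7 -0.0240 and Psmd9 -0.277 in PTKO AA 2wk, Psmb6 -0.302, Psmd11 -0.243, Psmd13 -0.287, Psmd3 -0.390, Psmd4 -0.137 and Psmd8 -0.00838 in fl/fl AA 4wk, Psma7 -0.0700, Psmb6 -0.451, Psmd11 -0.461, Psmd13 -0.446 and Psmd4 -0.141 in PTKO AA 4wk; under quantile normalization, Psmc3ip -0.0605 and Psmd9 -0.382 in fl/fl AA 2wk, Psmd9 -0.283 in PTKO AA 2wk, Psmc3ip -0.280 in fl/fl AA 4wk, Psmc3ip -0.0844 in PTKO AA 4wk. The members' recovered reads, from 24 in the lowest library of Psmc3ip to 5057 in the highest of Psmd3, limit the precision of low members most.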
